A study of Mus musculus and Homo sapiens with 4 samples.

Results

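The genes described here are 35 genes known as targets of oestrogen in breast cancer cells, followed in RNA sequencing of a prostate cancer cell line. They were chosen by name, from their known role in breast cells and by no measured value, but with earlier results of these data known. All 35 were found among the 25932 entries that the deposited values list for each VCaP library. VCaP is a prostate cancer line, grown in DMEM with fetal bovine serum at passage 5 to 6. VCaP ERα cells are VCaP cells made to overexpress oestrogen receptor alpha (ERα), grown in the same medium at passage 4 to 5. The series holds 1 library of each, both prepared from total RNA after removal of ribosomal RNA with the strand of the transcripts kept, and 2 libraries of mouse fibroblasts that were not used here. The labels name neither a vector control nor an oestrogen treatment for the sequenced cells, and they do not say whether VCaP ERα is 1 clone. Since each condition has 1 library, the differences below carry no replicate check, and P-values are not given.

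ERα, encoded by ESR1, is a nuclear receptor that binds oestrogen and then acts on DNA at oestrogen response elements, directly or through other factors. In breast cancer cells it switches on transcription factors and coregulators such as GREB1, MYB and XBP1, growth factor signalling genes such as IGF1R and IRS1, and secreted proteins such as STC2 and AREG. It works with coactivators of the NCOA family and with pioneer factors such as FOXA1 and GATA3, which open chromatin for it. Which genes it reaches differs between tissues, and the list used here is that of the breast.

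Levels are in RPKM, that is reads scaled by entry length and by library size, and can be compared between genes. Where a pair of RPKM values is given, the first is that of the library labelled VCaP and the second that of VCaP ERα. Differences are log2 ratios of VCaP ERα over VCaP after 1 was added to each RPKM. A negative ratio therefore means a lower level in VCaP ERα cells. A gene was counted as changed when its log2 ratio was above 2 or below -2. The added 1 understates the differences of genes with low values.

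ESR1 itself stood at 15.7 and 209 RPKM (log2 ratio 3.65) and was thus higher in the library labelled as overexpressing it. Reads of the introduced and of the cells' own ESR1 cannot be told apart. The library labelled VCaP went against its label in other markers. All 12 prostate luminal markers of the list used, among them KLK2, KLK3, KLK4, ACPP, TMPRSS2, HOXB13, STEAP2, FOLH1, SLC45A3, TRPM8 and AMACR, were lower there, from 0 to 8.18 RPKM against 3.16 to 694 RPKM in VCaP ERα, with summed levels of 22.1 and 2026 RPKM. KLK4 and FOLH1 were listed at 0 in that library. Of 9 breast luminal markers, 5 were higher in the library labelled VCaP, among them TFF1 and TRPS1, and 4 were lower, among them AGR2. Their summed levels were 2120 and 756 RPKM. TFF1 (1596 and 6.998 RPKM) made up most of the first sum and AGR2 (114 and 727 RPKM) most of the second. The higher first sum thus rests on TFF1 and does not describe the list as a whole. TFF3 (285 and 14.5 RPKM), GATA3 (90.5 and 0.633 RPKM), TRPS1 (30.7 and 0.0354 RPKM) and PGR (3.14 and 0.0954 RPKM) were also higher in the library labelled VCaP. AGR3 (0.776 and 6.97 RPKM) was lower there, as AGR2 was. The other markers counted as lower, SCGB2A2 (a listed 0 and 0.0297 RPKM) and ANKRD30A (0.00756 and 0.0430 RPKM), were near 0 in both. The 5 epithelial markers were at 50.7 to 1708 RPKM in that library and at 5.44 to 82.6 RPKM in VCaP ERα. EPCAM (50.7 and 82.6 RPKM) was higher in VCaP ERα, and the others were lower. The summed level of 5 basal epithelial markers was 50.1 against 2.85 RPKM. KRT17 (38.9 and 0.774 RPKM) made up most of the first sum, and KRT6A and TP63 were also lower in VCaP ERα. KRT5 (0.0259 and 0.623 RPKM) and KRT14 (a listed 0 and 1.19 RPKM) were higher in VCaP ERα. The 4 fibroblast markers summed to 0.930 and 1.52 RPKM and 4 leukocyte markers to 0.783 and 0.593 RPKM. Among the markers of these other cell types, KRT14, COL1A2 and CD3E were listed at 0 in the library labelled VCaP, and DCN and PTPRC were listed at 0 in VCaP ERα. The part of these differences in the values below was not tested, and a difference in ERα and a difference in the identity of the cells cannot be told apart with 1 library of each.

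The oestrogen-response genes as a group stood lower in the cells with more ERα. In VCaP ERα, 31 of the 35 were lower and 4 were higher (ELOVL2, SGK3, CXCL12 and OLFM1), whereas 41.2% of all entries were lower and 46.6% higher. The median of the 35 log2 ratios was -1.37, against 0 over all entries and -0.50 among those that reached 1 RPKM in either library. In such bulk samples fewer cells that express a gene and less RNA per cell cannot be told apart. A log2 ratio below -2 was found for 15 of the 35 genes, beside 6.56% of all entries, and a ratio above 2 for 0 genes, beside 2.27%. Many entries in the whole set are silent in both libraries, so the share among expressed entries is the closer background. Of the 13954 entries with at least 1 RPKM in either library, 64.0% were lower in VCaP ERα, 12.2% had a ratio below -2 and 4.21% a ratio above 2.

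The libraries also differed in scale. Among the 9754 entries that reached 1 RPKM in each library the median log2 ratio was -0.59, so a typical expressed gene was lower in VCaP ERα. Relative to this median, 29 of the 35 genes were lower, beside 25.9% of all entries and 47.2% of those expressed in either library. The number more than 2 below it was 10, beside 3.35% of all entries and 6.22% of those expressed in either library. The number more than 2 above it was 1, beside 4.77% and 8.87%. The median of the 35 genes was then -0.78. After quantile normalization, which gives both libraries the same distribution of values, 32 of the 35 genes were lower, beside 53.1% of all entries and 48.8% of those expressed in either library. A ratio below -2 was then found for 11 genes, beside 3.84% and 7.14%, and a ratio above 2 for 1 gene, beside 3.87% and 7.19%. The direction of the group was thus the same on each scale, while fewer genes passed the lower threshold after centring and after normalization.

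**Figure D1:**
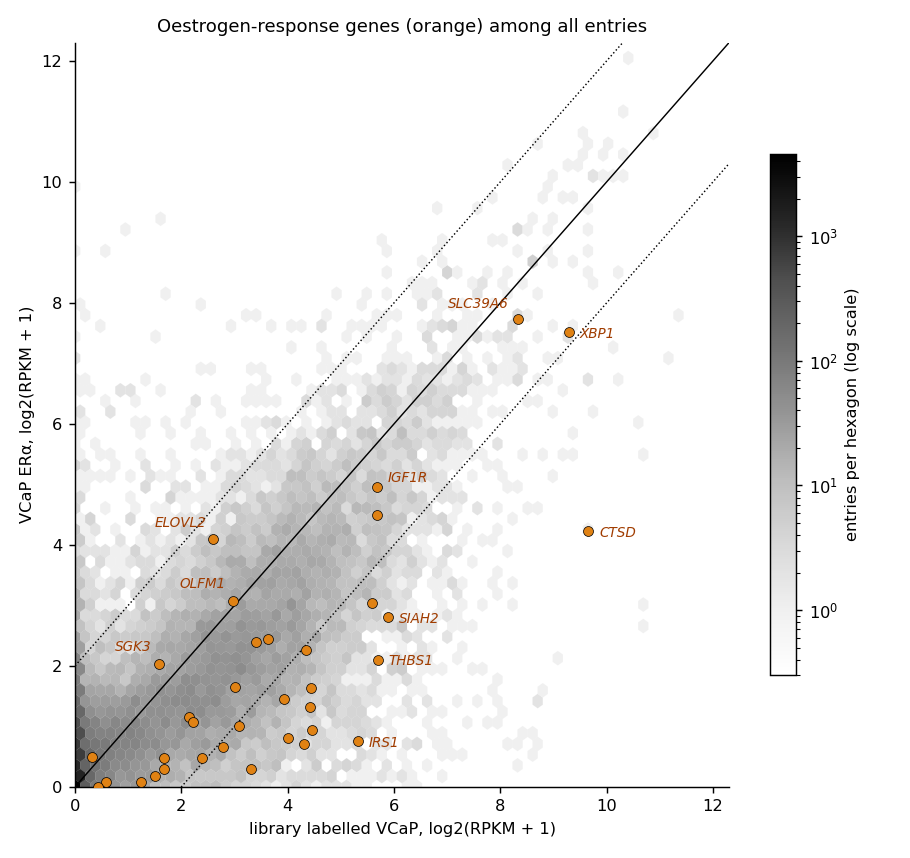
Levels in VCaP ERα (y axis) against those of the library labelled VCaP (x axis), both as log2(RPKM + 1), for all 25932 entries (grey hexagons, shaded by the number of entries) and for the 35 oestrogen-response genes (orange). The solid line marks equal values and the dotted lines a log2 ratio of 2 in either direction. Of the 35 genes, 15 lie below the lower dotted line and 0 above the upper one.

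The 35 genes were expressed at very different levels. In the library labelled VCaP they ranged from 0.250 RPKM (CXCL12) to 806 RPKM (CTSD), with a median of 9.57 RPKM, and 32 of them reached 1 RPKM. In VCaP ERα they ranged from a listed 0 (AREG) to 211 RPKM (SLC39A6), with a median of 1.49 RPKM, and 21 reached 1 RPKM. For comparison, 45.4% and 46.0% of all entries reached 1 RPKM in these libraries. At least 10 RPKM was reached by 17 and by 6 of the 35 genes, respectively. A typical expressed entry was also lower in VCaP ERα, and the share of all entries at this level is not given here. No gene of the list passed 1 RPKM in VCaP ERα alone, 11 did so in the library labelled VCaP alone, 21 in both, and CXCL12, MYBL1 and AREG in neither. Over all entries these shares were 8.42% in VCaP ERα alone, 7.77% in the library labelled VCaP alone and 37.6% in both. Among the 21 genes expressed in both, 18 had a lower level in VCaP ERα and 9 had a ratio below -2, beside 70.9% and 11.5% of the entries expressed in both. The summed level of all 35 genes was 2260 and 534 RPKM, which is 4.23-fold higher in the library labelled VCaP. CTSD and XBP1 made up most of it, and without them the sum was 2.48-fold higher.

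The order of the genes also differed between the libraries. In the library labelled VCaP the highest levels were those of CTSD (806 RPKM), XBP1 (623 RPKM), SLC39A6 (322 RPKM), SIAH2 (58.4 RPKM) and THBS1 (50.8 RPKM). In VCaP ERα they were those of SLC39A6 (211 RPKM), XBP1 (182 RPKM), IGF1R (29.9 RPKM), NRIP1 (21.5 RPKM) and CTSD (17.7 RPKM). CTSD thus stood at rank 26 and at rank 1758 among all entries, whereas SLC39A6 stood at similar ranks (91 and 109).

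**Figure D2:**
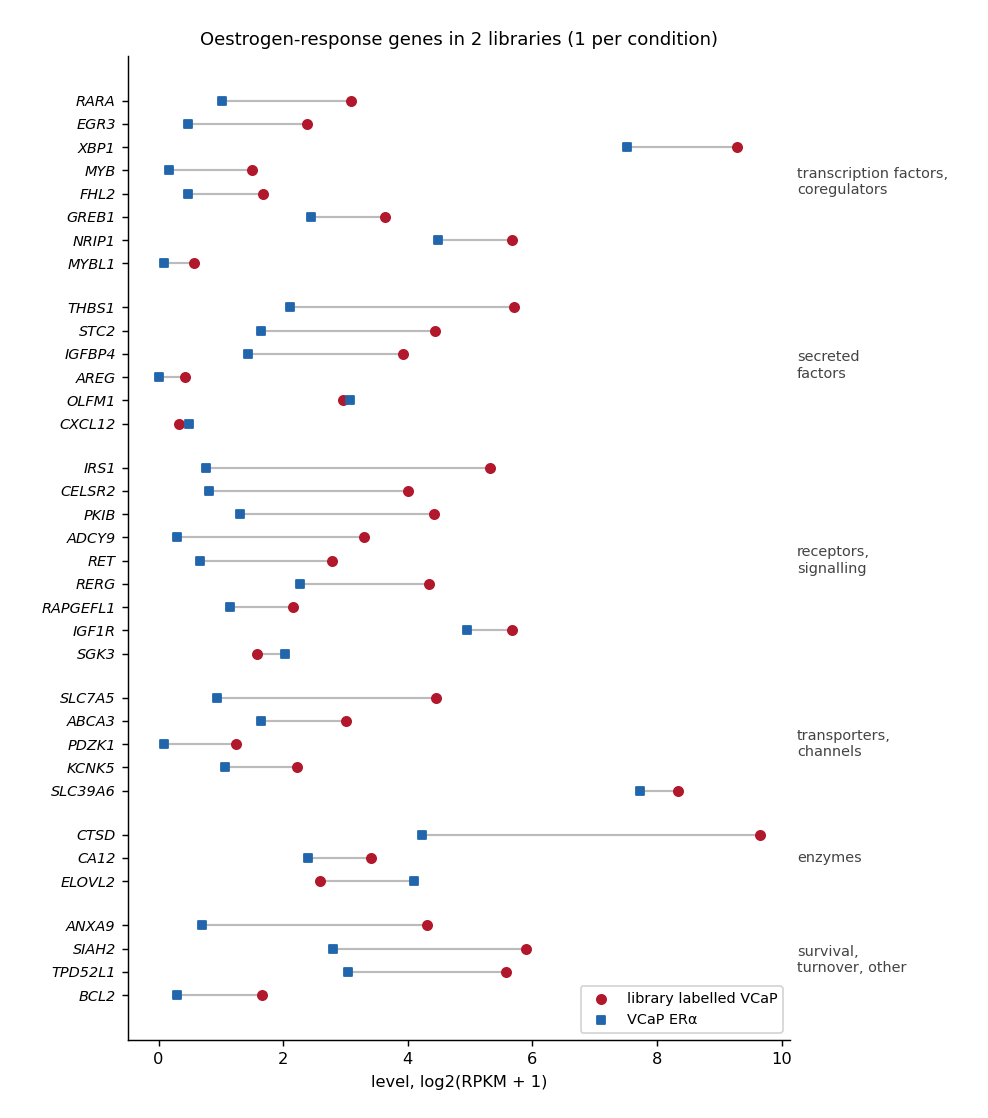
Level of each of the 35 genes, as log2(RPKM + 1) on the x axis, for the library labelled VCaP (red circles) and for VCaP ERα (blue squares), with 1 library each and the genes grouped by role. The circle lies to the right of the square for 31 genes. It lies to the left for ELOVL2, SGK3, CXCL12 and OLFM1.

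The transcription factors and coregulators were all lower in VCaP ERα, but mostly by less than the threshold. Of these 8 genes, 1 had a log2 ratio below -2, and their median was -1.27. Such a ratio was found for 12.2% of the entries expressed in either library, the background for this and the following groups. XBP1, a transcription factor of the unfolded protein response, was the most abundant of them in both libraries, with 623 and 182 RPKM (log2 ratio -1.77). It stands on 2 entries with the same coordinates, and the other entry, at 473 and 139 RPKM, gave a ratio of -1.76. RARA, the retinoic acid receptor alpha, went from 7.47 to 1.02 RPKM and was the gene of this group past the threshold (-2.07); its entry overlaps those of TOP2A and GJD3. Relative to the median of expressed entries RARA was at -1.48, short of the threshold.

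GREB1 and NRIP1, 2 of the coregulators of ERα itself, stayed expressed in VCaP ERα. GREB1, an ERα coactivator and a much used marker of oestrogen response, had 11.4 and 4.44 RPKM (-1.19). NRIP1, which binds the liganded receptor and represses its targets, had 50.2 and 21.5 RPKM (-1.19). After quantile normalization the ratios of these genes were -0.41 and -0.52. EGR3, an immediate early zinc finger factor, had 4.23 and 0.387 RPKM (-1.91). The other members of the group were low in VCaP ERα. MYB, a proto-oncogene factor, had 1.84 and 0.128 RPKM (-1.33). FHL2, a LIM domain coregulator, had 2.19 and 0.388 RPKM (-1.20). MYBL1, a relative of MYB, was below 1 RPKM in both, with 0.488 and 0.0611 RPKM (-0.49).

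Among the secreted factors THBS1, STC2 and IGFBP4 were lower, whereas OLFM1 and the genes near 0, CXCL12 and AREG, differed little on this scale. Of these 6 genes, 3 had a ratio below -2, and the median was -1.45. THBS1, the matrix protein thrombospondin 1, had 50.8 and 3.29 RPKM (-3.59). STC2, the glycoprotein hormone stanniocalcin 2, had 20.6 and 2.11 RPKM (-2.80). IGFBP4, which binds insulin-like growth factors outside the cell, had 14.2 and 1.72 RPKM (-2.48). Each of these stayed lower after quantile normalization, with IGFBP4 then at -1.89.

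OLFM1, a secreted olfactomedin protein, had nearly the same level in both libraries, 6.81 and 7.44 RPKM (0.11). CXCL12, the chemokine that is the ligand of CXCR4, had 0.250 and 0.407 RPKM (0.17), and its sign turned after quantile normalization (-0.24). AREG, the EGF receptor ligand amphiregulin, had 0.341 RPKM in the library labelled VCaP and was listed at 0 in VCaP ERα. Its entry spans 179793 bp on chromosome 4, far more than the gene, and a near-identical copy of AREG lies there, so its value is uncertain.

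The receptors and signalling proteins held the largest number of genes past the threshold, 6 of 9, though not the largest share, with a median of -2.12. IRS1, the adaptor that carries signals from the insulin and IGF1 receptors, had 39.0 and 0.688 RPKM, a ratio of -4.57 and after CTSD the lowest of the list. IGF1R, the receptor upstream of it, had 50.1 and 29.9 RPKM (-0.72), and after quantile normalization its ratio was -0.07. The receptor and its adaptor thus stood at similar levels in the library labelled VCaP, whereas in VCaP ERα the receptor was among the highest genes of the list while the adaptor was under 1 RPKM.

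CELSR2, an adhesion receptor of the cadherin family, had 15.1 and 0.744 RPKM (-3.21). RET, the receptor tyrosine kinase for ligands of the GDNF family, had 5.90 and 0.585 RPKM (-2.12). Relative to the median of expressed entries RET was at -1.53. Intracellular regulators of cAMP signalling were lower too. ADCY9, an adenylyl cyclase that makes cAMP, had 8.85 and 0.224 RPKM (-3.01). PKIB, an inhibitor of the cAMP-dependent kinase, had 20.4 and 1.49 RPKM (-3.11). RERG, a Ras-like growth inhibitor, had 19.3 and 3.82 RPKM (-2.08), and relative to the median of expressed entries it was at -1.49. RAPGEFL1, related to exchange factors for Rap, had 3.44 and 1.22 RPKM (-0.997). SGK3, a kinase downstream of phosphoinositide signalling, was the only gene of this group that was higher in VCaP ERα, with 1.99 and 3.09 RPKM (0.45). Its entry overlaps those of C8orf44 and PTTG3, whose ratios were below 0 (-0.45 and -1.05).

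The transporters and channels were all lower, with 1 of 5 genes past the threshold and a median of -1.15. SLC7A5, the large neutral amino acid transporter LAT1, had 20.9 and 0.906 RPKM (-3.52); pseudogene copies of it exist on the same chromosome, and reads may be shared with them. SLC39A6, the zinc transporter LIV-1 and a classical oestrogen-regulated gene of the breast, had 322 and 211 RPKM (-0.60), which is the ratio of a typical expressed entry. ABCA3, a lipid transporter, had 7.05 and 2.13 RPKM (-1.36), and KCNK5, a potassium channel, had 3.65 and 1.10 RPKM (-1.15). PDZK1, a scaffold that anchors membrane transporters, had 1.35 and 0.0579 RPKM (-1.15), and it too has near-identical copies with which reads may be shared.

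The enzymes differed in both directions. CTSD, the lysosomal protease cathepsin D and 1 of the first oestrogen-regulated proteins described in breast cancer cells, showed the lowest ratio of the list, from 806 to 17.7 RPKM. The log2 ratio was -5.43, the RPKM was 45.5-fold higher in the library labelled VCaP, and the ratio ranked 52 from the lowest among all entries. The overlapping entry HCCA2 had 16.4 and 5.28 RPKM (-1.47). CA12, a membrane carbonic anhydrase, had 9.57 and 4.27 RPKM (-1.003), and -0.23 after quantile normalization. ELOVL2, which elongates polyunsaturated fatty acids, was the gene with the highest ratio of the list. It had 5.05 and 16.1 RPKM, a ratio of 1.49, which passed the threshold relative to the median of expressed entries (2.08) and after quantile normalization (2.20).

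The remaining genes were all lower, 3 of 4 past the threshold, with a median of -2.82. ANXA9, an atypical annexin, had 18.9 and 0.625 RPKM (-3.61), and the overlapping entry FAM63A had 9.94 and 3.15 RPKM (-1.40). SIAH2, a ubiquitin ligase, had 58.4 and 5.96 RPKM (-3.09). TPD52L1, a coiled-coil protein of the D52 family, had 46.9 and 7.20 RPKM (-2.55), and after quantile normalization it was at -1.80. BCL2, which blocks mitochondrial cell death, had 2.17 and 0.226 RPKM (-1.37).

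**Figure D3:**
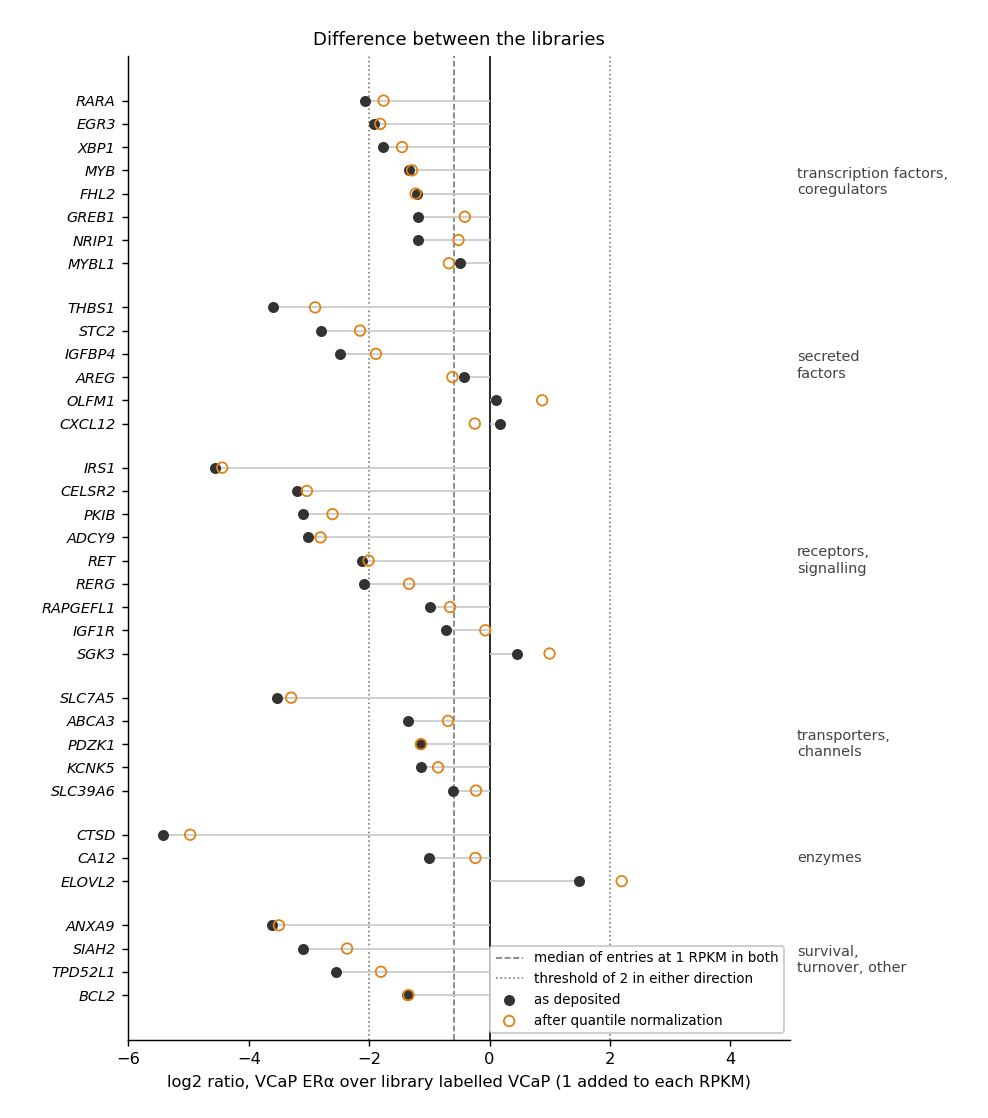
Log2 ratio of VCaP ERα over the library labelled VCaP for each of the 35 genes (x axis), as deposited (black) and after quantile normalization (open orange circles), grouped by role. The dashed line is the median of expressed entries (-0.59) and the dotted lines are the thresholds. CTSD and IRS1 lie farthest to the left, and ELOVL2 is the gene that crosses the upper threshold after normalization.

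The genes lie on 17 chromosomes, and their values were set beside those of their surroundings. Coordinates are those of the files, for which the submitters' processing notes name the human build hg18. Each gene was compared with its 10 nearest entries with at least 1 RPKM in either library, 5 on either side. Of the 35 genes, 28 lay below the median of their neighbours, beside 49.5% of the 13954 such entries treated in the same way. For 11 genes the gap was more than 2, beside 6.57% of these entries. A partly different set of 11 genes lay below each of their 10 neighbours, beside 9.20%. The genes below all of their neighbours were XBP1, MYB, IGFBP4, RET, NRIP1, CELSR2, IRS1, ADCY9, CTSD, ANXA9 and THBS1.

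The surroundings differed between loci. CTSD (chromosome 11, 1730561 to 1741798) differed by -5.23 on the log2 scale from the median of its neighbours, which was -0.20. These neighbours differed widely, and 5 of the 10 were lower in VCaP ERα. Their ratios ranged from -4.09 (25.3 and 0.541 RPKM) to 1.68 (0.145 and 2.66 RPKM). IRS1 (chromosome 2, 227304277 to 227371750) differed by -4.43 from a neighbour median of -0.14. NRIP1 on chromosome 21 was lower in VCaP ERα although 9 of its 10 neighbours were not, their median being 1.07. In contrast, the genes of chromosome 16 lay in low surroundings. All 10 neighbours of each of SLC7A5, ADCY9 and ABCA3 were lower in VCaP ERα, with medians of -2.10, -1.16 and -1.76, and the median over the expressed entries of the chromosome was -1.42. ABCA3 lay 0.40 above its neighbours. PDZK1 on chromosome 1 lay 0.85 above its neighbours, whose median was -2.005. ELOVL2 was above all 10 of its neighbours on chromosome 6 (median -0.90).

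Some of the genes are close to each other. RAPGEFL1, RARA and IGFBP4 lie within 279741 bp of chromosome 17 (35587768 to 35867508), with ratios of -0.997, -2.07 and -2.48, and TOP2A, which lies between them and overlaps RARA, was higher in VCaP ERα, with 7.23 and 11.6 RPKM (0.61). PKIB and TPD52L1 on chromosome 6 are separated by 2427360 bp and had ratios of -3.11 and -2.55, in surroundings with medians of -0.47 and -0.06. MYBL1 and SGK3 are separated by 53368 bp on chromosome 8 and had ratios of opposite sign (-0.49 and 0.45). Genes of the list could count among the neighbours of other genes of the list. This was so for PKIB and TPD52L1 with each other, for RARA with RAPGEFL1 and with IGFBP4 in both directions, and for SGK3 as a neighbour of MYBL1.

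**Figure D4:**
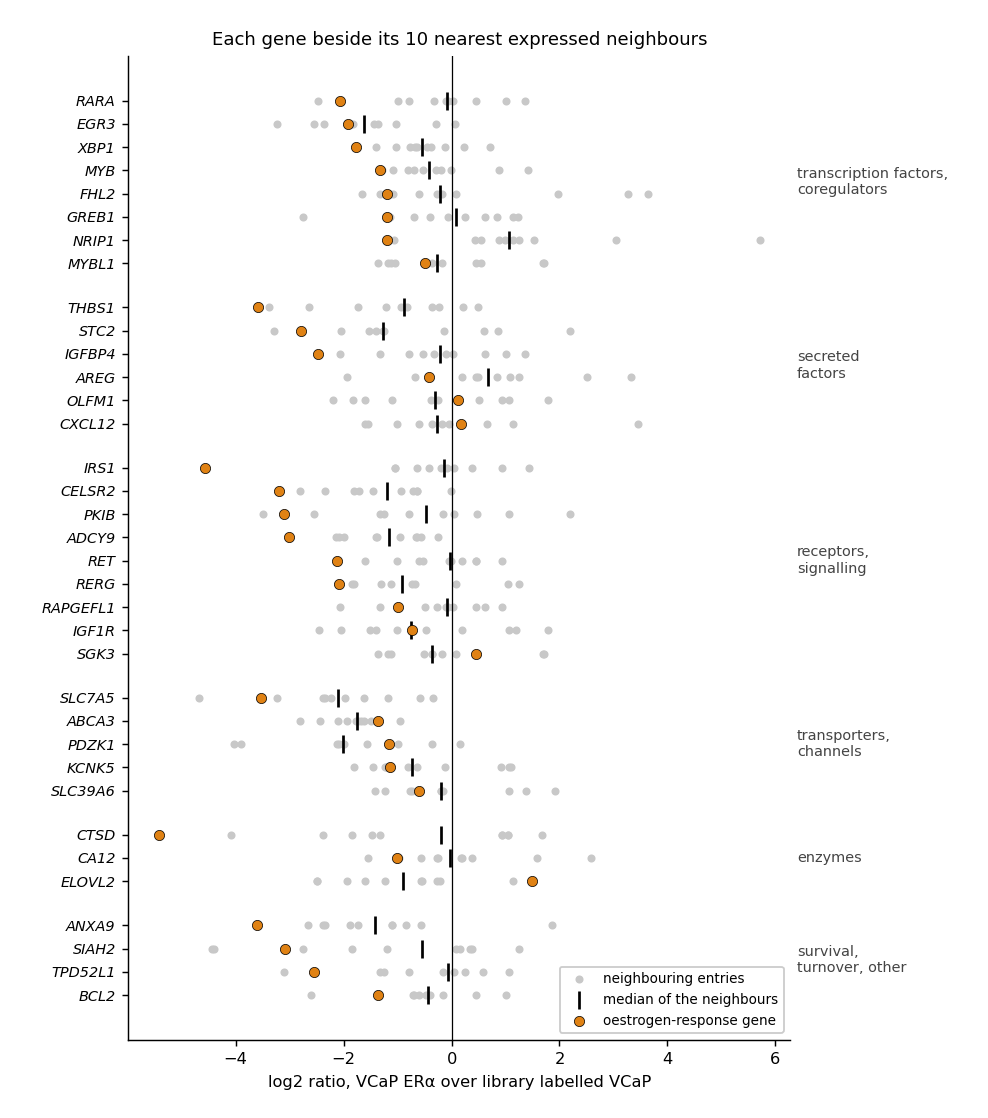
Log2 ratio of VCaP ERα over the library labelled VCaP (x axis) for each of the 35 genes (orange) beside its 10 nearest entries of at least 1 RPKM in either library (grey) and their median (black tick). The orange point lies to the left of the tick for 28 genes, most widely for CTSD and IRS1, and to the right most widely for ELOVL2.

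Further genes of the oestrogen response were also lower on balance. A list of 125 other genes that rise early after oestrogen in breast cancer lines had a median log2 ratio of -1.55. Of these 125 genes, 96 were lower in VCaP ERα and 29 higher, beside 41.2% and 46.6% of all entries. Among the entries expressed in either library, 64.0% were lower and 36.0% higher. A ratio below -2 was found for 52 genes and a ratio above 2 for 4 (6.56% and 2.27% of all entries, 12.2% and 4.21% of those expressed in either library). Relative to the median of expressed entries, 81 were lower (47.2% of the entries expressed in either library), with 33 below -2 (6.22%) and 8 above 2 (8.87%), so that the share above 2 was no higher than this background. The lowest were TFF1, a secreted trefoil peptide (1596 and 6.998 RPKM, -7.64), TPBG, a membrane glycoprotein (43.3 and 0.0960 RPKM, -5.34), and CLIC3, a chloride channel protein (50.3 and 0.491 RPKM, -5.10). The highest were SLC26A2, a sulphate transporter (1.26 and 45.8 RPKM, 4.37), CHPT1, an enzyme of phosphatidylcholine synthesis (2.20 and 61.9 RPKM, 4.30), and SLC16A1, a lactate transporter (1.08 and 13.8 RPKM, 2.83). PGR, the progesterone receptor and a standard readout of ERα activity in the breast, had 3.14 and 0.0954 RPKM (-1.92). CCND1, the cell cycle regulator cyclin D1, had 139 and 31.7 RPKM (-2.10), and relative to the median of expressed entries it was at -1.51.

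The partners of the receptor differed widely in their ratios. Of 21 receptor and cofactor genes, ESR1 included, 18 were lower in VCaP ERα and 3 higher, with a median of -0.81, beside 64.0% lower among the entries expressed in either library. Relative to the median of expressed entries 12 were lower and 9 higher, beside 47.2% lower. FOXA1, a pioneer factor for ERα, was high in both libraries (139 and 127 RPKM, -0.13). GATA3, another pioneer factor for ERα, had 90.5 and 0.633 RPKM (-5.81). The coactivator NCOA3 had 148 and 3.51 RPKM (-5.05), whereas NCOA1 (-0.21) and NCOA2 (-0.51) were nearer to the typical entry. Among the others past the threshold were the membrane oestrogen receptor GPER (36.5 and 1.23 RPKM, -4.07), the factor TFAP2C (40.2 and 1.66 RPKM, -3.95) and the methyltransferase CARM1 (18.2 and 1.08 RPKM, -3.21). The acetyltransferase CREBBP (14.5 and 2.65 RPKM, -2.09) was also past it, but relative to the median of expressed entries it was at -1.50. ESR2, which encodes oestrogen receptor beta, was near 0 in both (0.0684 and 0.196 RPKM). ESR1 was the gene of this list above the upper threshold.

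**Figure D5:**
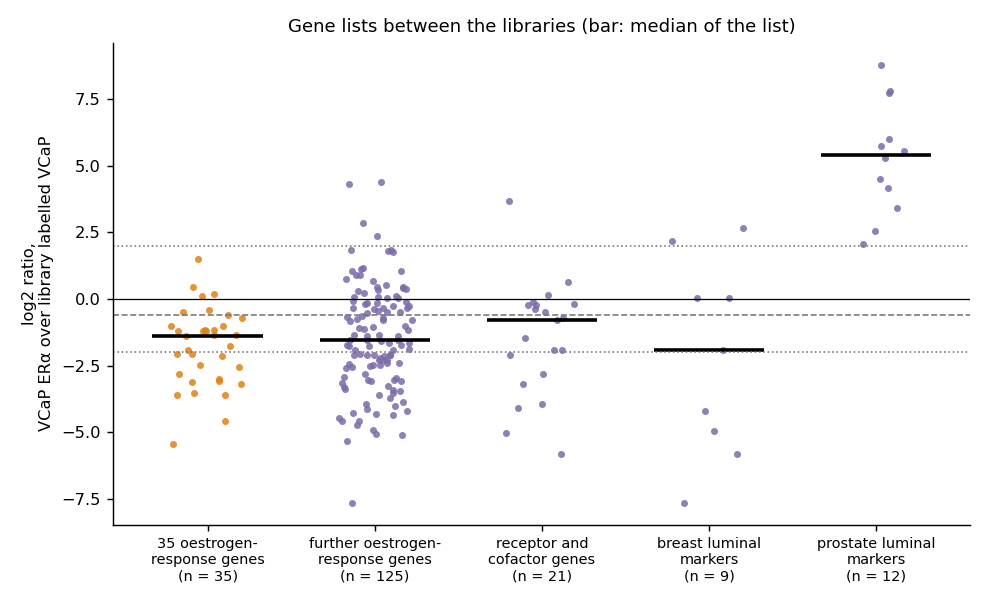
Log2 ratio of VCaP ERα over the library labelled VCaP (y axis) for the 35 oestrogen-response genes, 125 further oestrogen-response genes, 21 receptor and cofactor genes, 9 breast luminal markers and 12 prostate luminal markers; each point is a gene and each bar the median of its list. The dashed line is the median of expressed entries (-0.59) and the dotted lines are the thresholds. The medians are -1.37, -1.55, -0.81, -1.92 and 5.40, and all prostate luminal markers lie above the upper threshold. PGR stands in the lists of further genes, cofactors and breast luminal markers, GATA3 in the last 2 of these, and TFF1 and TFF3 in the first and the last.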

How the data were processed

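The authors deposited 1 RPKM value per entry and library, for entries with known-gene identifiers, symbols and coordinates. The submitters' processing notes name CASAVA 1.8 and, for human data, hg18; the counting tool, the use of strand in counting and the number of reads are not given in the sources used here, so the depth is unknown and no interval or detection limit was computed.

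For a symbol that stands on more than 1 entry, the entry of highest mean RPKM was taken. Log2 ratios were taken after adding 1 to each value, without a test, since each condition has 1 library. The study applied its threshold to higher values; here 2 was used in both directions. No filter on low values was used. ESRP2 and KDM4B were found under older symbols. All 35 genes are named; of the 125 further genes, the 3 lowest, the 3 highest, PGR, TFF1 and CCND1; of the 21 receptor and cofactor genes, those past the threshold with ESR2, FOXA1 and GATA3. 1 gene under this rule is left unreported. NCOA1, NCOA2 and the entries overlapping the 35 genes were named after their values were seen. The genes and lists were chosen with earlier results of these data known, and the comparison with neighbours was added after the values had been seen, as were the sums without CTSD and XBP1. Promoter sequences of human genes were not analysed here. The scripts were tested on simulated data. Calculations were done in Python 3.11.15 with pandas 2.3.3 and numpy 2.4.6, and plots with matplotlib 3.10.9.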

Additional observations from a re-analysis of the deposited data

How the results depend on the processing

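The alternatives were a pseudocount of 0.1, centring on the median of expressed entries, quantile normalization, keeping entries of at least 1 RPKM in either library, and summed entries for a symbol. Counts within 1.5 times and log2 ratios within 0.58 of the original were treated as unmoved. By this rule the log2 ratios of all 35 genes moved after centring, which shifts each by the same amount. Those of 15 genes moved with the pseudocount of 0.1 and those of 13 after quantile normalization. The median of the 35 genes was -1.37 and stayed negative under each of the 5 alternatives, at -2.69 with the pseudocount of 0.1 and at -0.78 after centring. The genes above 2 went from 0 to 1 (ELOVL2) after centring and after quantile normalization. For the 125 further genes, centring gave a median of -0.96, with 33 below -2, and 8 genes were above 2 after centring and after quantile normalization, where 8.87% and 7.19% of the entries expressed in either library were. The median of the receptor and cofactor genes was -0.22 after centring and -0.19 after quantile normalization. Of the 35 genes, 2 (MYBL1 and AREG) changed sign after centring, 1 (CXCL12) after quantile normalization and 0 under the other alternatives, where the minimum of 1 RPKM left 32 genes with a value; none of the genes that changed sign had passed the threshold. The genes below -2 numbered 15, and from 10 (centring) to 21 (pseudocount of 0.1) under the alternatives. With 20 neighbours in place of 10, an alternative added after seeing the data, 29 genes in place of 28 lay below the median of their neighbours. No replicate could be left out, and no paired analysis was possible because each condition has 1 library. The depth of the libraries is unknown, so differences of genes under 1 RPKM in both cannot be weighed against counting error.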
